A study of Mus musculus with 24 samples.

Results

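Immune checkpoint genes encode the ligands and receptors that restrain T cells, and 10 of them were followed here among the 53465 genes of the table. They were taken by name, and no threshold on a measured value enters the rule. The 5 ligands were Cd274 (PD-L1), Pdcd1lg2 (PD-L2), Pvr (CD155), Nectin2 (CD112) and Lgals9 (galectin-9), and the 5 receptors were Pdcd1 (PD-1), Ctla4, Lag3, Tigit and Havcr2 (TIM-3). All 10 were found by their mouse gene identifiers. RNA came from 24 subcutaneous allografts of the BURP bladder tumor lines, with 3 tumors from each of 8 lines. Every line began as a bladder tumor of a C57BL/6NTac mouse that drank the carcinogen BBN at 0.1% from 8 weeks of age for up to 36 weeks, and it was passaged in immune-competent hosts of the same strain and sex. There are 6 basal/squamous (Ba/Sq) lines, of which BURP-12BaSq, BURP-18BaSq and BURP-17BaSq had male donors and hosts, while those of BURP-25BaSq, BURP-24BaSq and BURP-21BaSq were female. BURP-16SR (stroma-rich) and BURP-19NE (neuroendocrine-like) both came from male mice. Each line descends from 1 donor tumor, so a difference between lines cannot be told apart from a difference between donors.

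Checkpoints act as brakes on T cells. PD-1 is switched on in activated T cells and lowers their signalling when it binds PD-L1 or PD-L2, which tumor cells, macrophages and dendritic cells can display. CTLA-4 competes with the costimulatory receptor CD28 for CD80 and CD86, and LAG-3 binds MHC class II. TIGIT, found on T cells and natural killer cells, binds CD155 and CD112, the nectin-like proteins that adherent cells also use for contact. TIM-3 is carried by exhausted T cells and also by macrophages and dendritic cells, and galectin-9 has been described as one of its ligands. Interferon gamma released by T cells raises PD-L1, and drugs that block PD-1 or PD-L1 are in use against bladder cancer.

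The promoters of Cd274 and Lgals9 are shown because the levels of these ligands are set against interferon response genes further on. The sequences are the bases before the transcription start, from RefSeq on build GRCm38.p6, on the strand of the gene. That of Cd274 spans chr19:29367188-29367437 on the plus strand and that of Lgals9 chr11:78984947-78985174 on the minus strand. Capitals mark a match to the core of the interferon-stimulated response element (ISRE), searched on both strands as GAAA, a pair of bases of any kind and GAAA.
Cd274: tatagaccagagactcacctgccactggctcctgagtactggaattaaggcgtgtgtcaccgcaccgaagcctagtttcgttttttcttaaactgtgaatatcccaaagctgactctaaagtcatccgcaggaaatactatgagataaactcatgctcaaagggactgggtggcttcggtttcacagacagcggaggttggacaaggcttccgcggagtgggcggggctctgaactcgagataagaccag
Lgals9: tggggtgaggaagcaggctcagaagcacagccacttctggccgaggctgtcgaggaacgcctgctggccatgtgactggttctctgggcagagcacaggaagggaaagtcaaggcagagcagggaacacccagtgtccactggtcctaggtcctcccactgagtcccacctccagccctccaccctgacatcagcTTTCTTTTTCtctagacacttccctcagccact
The match in Lgals9 starts 55 bases before the start site of RefSeq, which lies beyond the last letter shown. The Lgals9 stretch holds 228 bases, because the part of its window next to the start, inside the gene model used here, was left out. Such a match stood in 2.98% of 32851 promoter windows of 250 bases. A search for the gamma-activated site as TTCNNNGAA, which stood in 7.02% of the windows, gave no match in either promoter, and neither motif was found in the windows of Pdcd1lg2, Pdcd1, Tigit or Havcr2. RefSeq held windows for 8 of the 10 members, and those of Nectin2 and Ctla4 lie inside the gene models used here and were not searched. No match says only that these letters are not in the window.

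Levels are given as CPM, the counts of a gene scaled to a common library size, after normalization of library size by the TMM method. Total counts per tumor ran from 9295755 to 25370376, so that 3 counts, taken as the smallest level a library can show, stood for 0.106 to 1.33 CPM. The highest of these floors belonged to C102-M30 of BURP-25BaSq, in which ribosomal-type RNA took 62.8% of the counts against at most 18.95% elsewhere. Expression in the library labelled BURP-25BaSq C102-M1 is closer to that in the BURP-21BaSq tumors than to that in its own line, and its label was left unchanged. Tumors of the same line differed by at least 24.1 times the variance of counting noise, and no pair of tumors was a repeat of 1 library. Epcam, a marker of epithelium, was at 21.3 CPM or more in every Ba/Sq tumor, at most 0.590 CPM in BURP-16SR and at 0 in BURP-19NE. Most of a list of 9 epithelial genes were lower in these 2 lines, as given below, but not all. Krt18 averaged 228 CPM in BURP-16SR and 166 CPM in BURP-19NE against 79.9 CPM in the Ba/Sq tumors. Krt8 averaged 122, 0.0902 and 50.1 CPM in the same order. In bulk tumor RNA, fewer cells of a type and less RNA per cell cannot be told apart, and which cells carried a ligand or receptor was not measured.

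By their median over the 24 tumors, 4 of the ligands were more abundant than any receptor. Per kilobase of exon, the scale on which genes can be compared, the median level over the 24 tumors was 9.55 CPM for Lgals9, 6.82 for Nectin2, 6.27 for Cd274 and 4.50 for Pvr. Among the receptors it was 2.29 CPM per kilobase for Tigit, 2.07 for Havcr2, 1.22 for Lag3, 0.634 for Pdcd1 and 0.483 for Ctla4. Pdcd1lg2, with a median of 0.414 CPM per kilobase, was the exception among the ligands. In BURP-16SR the order was another, since Havcr2 reached 38.2, 38.7 and 85.4 CPM per kilobase there and no ligand exceeded 16.8. All values that follow are CPM without division by length.

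Cd274 on chromosome 19 (29367455 to 29388095, plus strand) was expressed in all 24 tumors, from 4.35 CPM in BURP-18BaSq C149-M3 to 50.7 CPM in BURP-25BaSq C102-M30. Its tumors stood at 42.2, 31.4 and 46.1 CPM in BURP-24BaSq, at 32.9, 36.2 and 19.7 CPM in BURP-16SR and at 19.4, 12.4 and 24.1 CPM in BURP-19NE. The lowest line was BURP-12BaSq, with 12.0, 10.9 and 12.3 CPM. BURP-12BaSq was tight and low, whereas BURP-18BaSq spanned nearly the whole range, with 42.0, 4.35 and 24.2 CPM. The lines did not differ in a test for any difference among the 8 (adjusted p = 0.121, edgeR's quasi-likelihood test), but leaving out BURP-18BaSq C149-M3 brought the adjusted p to 0.0151 and leaving out BURP-18BaSq C148-M3 brought it to 0.0457.

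Pdcd1lg2, which lies beside Cd274 on chromosome 19 (29410919 to 29471161, plus strand) and encodes the other ligand of PD-1, followed a different pattern. It was highest in BURP-16SR, at 11.8, 9.54 and 4.38 CPM, and in BURP-18BaSq, where the tumors stood at 5.32, 0.682 and 6.80 CPM. BURP-19NE was lowest at 0.126, 0.157 and 0.406 CPM, which rest on 3, 3 and 9 counts. In the other 5 lines no tumor exceeded 1.52 CPM except the library labelled BURP-25BaSq C102-M1 at 3.58 CPM. Its antisense neighbour A930007I19Rik overlaps the gene, and reads of the pair cannot be told apart where the counting did not use strand, which the sources used here do not state.

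Pvr and Nectin2, the ligands of TIGIT, lie near each other on chromosome 7 (Pvr from 19903578 to 19921160, Nectin2 from 19716644 to 19750483, both on the minus strand) and ranked the lines differently. Pvr was highest in BURP-16SR at 77.8, 68.3 and 103 CPM and reached 89.0 CPM in BURP-18BaSq C148-M3, whose sister tumors were at 37.8 and 30.9 CPM. BURP-19NE stood at 50.3, 38.8 and 42.8 CPM and BURP-17BaSq at 39.1, 30.8 and 38.8 CPM. The female lines were low, with 12.4 to 14.1 CPM in BURP-24BaSq, 8.01 to 23.4 CPM in BURP-25BaSq and 14.8 to 24.2 CPM in BURP-21BaSq, and the male line BURP-12BaSq was as low, with 14.2 to 18.96 CPM. Pvr overlaps the antisense gene Gm16251 and the pseudogene Gm16184, so its counts carry that uncertainty.

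Nectin2 was instead highest in BURP-17BaSq, at 61.1, 90.4 and 52.2 CPM, above every other tumor of the study. BURP-24BaSq followed with 43.4, 29.97 and 33.7 CPM and BURP-18BaSq with 35.5, 46.98 and 23.5 CPM. The lowest values were those of BURP-12BaSq, at 12.3, 9.96 and 9.46 CPM, and BURP-16SR, at 9.69, 17.8 and 7.09 CPM. BURP-16SR thus held the most Pvr and among the least Nectin2, and its P5 tumor had both the highest Pvr and the lowest Nectin2 of the 24. Nectin2 overlaps the antisense gene Gm20512.

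Lgals9 (chromosome 11, 78962974 to 78984946, minus strand) encodes a lectin that binds glycans on TIM-3 and other surface proteins. It reached 31.7, 68.0 and 115 CPM in BURP-21BaSq. The library labelled BURP-25BaSq C102-M1 was at 76.5 CPM, while the other tumors of BURP-25BaSq were at 4.51 and 22.2 CPM. In the remaining lines values ran from 3.41 to 36.6 CPM, and BURP-17BaSq was the most uniform with 31.7 to 36.6 CPM. The test for any difference among the 8 lines gave an adjusted p of 0.0539 with the labels as they stand, 0.00411 without C102-M1 and C102-M30, and 0.00359 when C102-M1 was moved to BURP-21BaSq. Leaving out any 1 of C102-M3 and C102-M1 of BURP-25BaSq, C148-M3 and C149-M3 of BURP-18BaSq, P4 of BURP-21BaSq or C74-MNT of BURP-16SR also brought it under 0.05, to between 0.00987 and 0.0452.

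**Figure D1:**
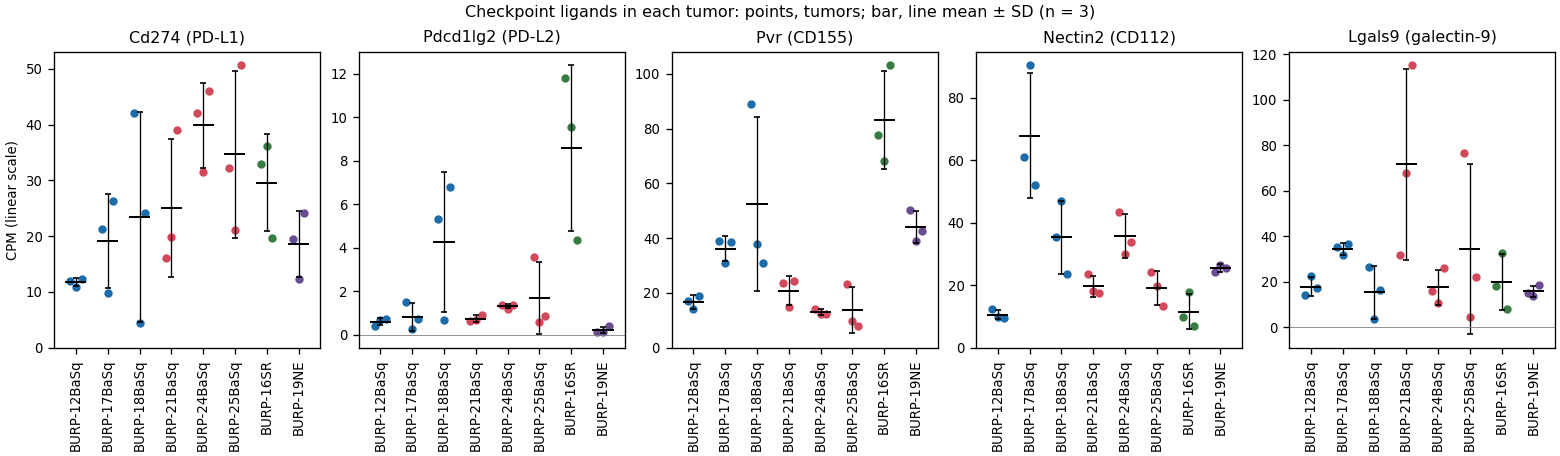
Level of the 5 checkpoint ligands in CPM on a linear axis, by line. Points are the 24 tumors (blue, male Ba/Sq; red, female Ba/Sq; green, BURP-16SR; purple, BURP-19NE), with the mean and SD of the 3 tumors of a line in black. Pdcd1lg2 and Pvr have their highest line mean in BURP-16SR, Nectin2 in BURP-17BaSq and Lgals9 in BURP-21BaSq.

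The receptors Pdcd1, Ctla4 and Lag3, which on T cells mark activation and exhaustion, were low in all lines. Pdcd1 (chromosome 1) ran from 0 to 3.08 CPM and Ctla4 (chromosome 1) from 0 to 7.54 CPM. Lag3 (chromosome 6) lay between 0.556 CPM in BURP-16SR P5 and 6.55 CPM in BURP-18BaSq C148-M3. The highest Pdcd1 and Ctla4 values were both in BURP-16SR C74-MNT and both genes were at 0 in its sister tumor P5. Ctla4 was also at 0 in BURP-18BaSq C149-M3. Ctla4 overlaps the pseudogene Rpl18-ps1.

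BURP-16SR showed how far tumors of 1 line could differ in these 3 receptors. Its Ctla4 was at 4.72 and 7.54 CPM in C73-M10 and C74-MNT and at 0 counts in P5, for which 3 counts would be 0.209 CPM. Pdcd1 was at 2.36, 3.08 and 0 CPM in the same order, and Lag3 at 4.38, 5.69 and 0.556 CPM. P5 also had no count of Cd3d, Cd3e or Cd3g, the subunits of the T cell receptor complex, where C74-MNT had 2.46, 6.38 and 4.08 CPM. Of the receptors, Pdcd1, Ctla4 and Lag3 were each not called in any of the 28 pairs of lines, nor in the tests over the 8 lines (adjusted p = 0.379 for Pdcd1, 0.284 for Ctla4 and 0.348 for Lag3, edgeR).

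Tigit (chromosome 16, 43648867 to 43664146, minus strand) was highest in 3 lines. It was at 4.80, 9.60 and 7.35 CPM in BURP-17BaSq, at 5.14, 9.0 and 3.82 CPM in BURP-16SR and at 4.43, 2.25 and 5.91 CPM in BURP-19NE. In the other 5 lines it stayed between 0.171 and 3.29 CPM. Only BURP-19NE C80-M3 of the first 3 lines overlapped with the rest, but the step from BURP-19NE to the next line, BURP-24BaSq, was not called (adjusted p = 0.258, edgeR). The highest Tigit of all, 9.60 CPM from 115 counts, was in BURP-17BaSq C165-M30, a tumor with 0 counts of Cd3e, 0.167 CPM of Pdcd1 and 0.0835 CPM of Ctla4.

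Havcr2 (chromosome 11, 46454935 to 46481255, plus strand) set a single line apart. It stood at 104, 105 and 232 CPM in BURP-16SR, from 1235, 1369 and 3342 counts. In the other 21 tumors it ran from 2.30 to 13.2 CPM. The highest value, in BURP-16SR P5, came with 9.94 CPM of the leukocyte marker Ptprc (CD45), the third lowest of the 24, and with 20.4 CPM of the macrophage gene Csf1r, against 151 and 106 CPM of Ptprc and 110 and 95.0 CPM of Csf1r in the other tumors of the line. The macrophage marker Adgre1 was at 19.3, 19.7 and 2.22 CPM in C73-M10, C74-MNT and P5. Within this line, Havcr2 was thus highest in the tumor in which Ptprc, Csf1r and Adgre1 were lowest. Of a list of 15 macrophage genes, all but Cd14 had their lowest value of the line in P5. C1qa ran from 8.55 CPM in P5 to 117 CPM and Mrc1 from 8.13 CPM in P5 to 139 CPM. Cd14 stayed at 26.3 to 36.1 CPM and Mertk at 14.5 to 19.6 CPM, against at most 18.7 and 14.1 CPM in the Ba/Sq tumors. By these genes, apart from Cd14, P5 held the least macrophage RNA of the line. The number of macrophages and the cells that carried Havcr2 were not measured.

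**Figure D2:**
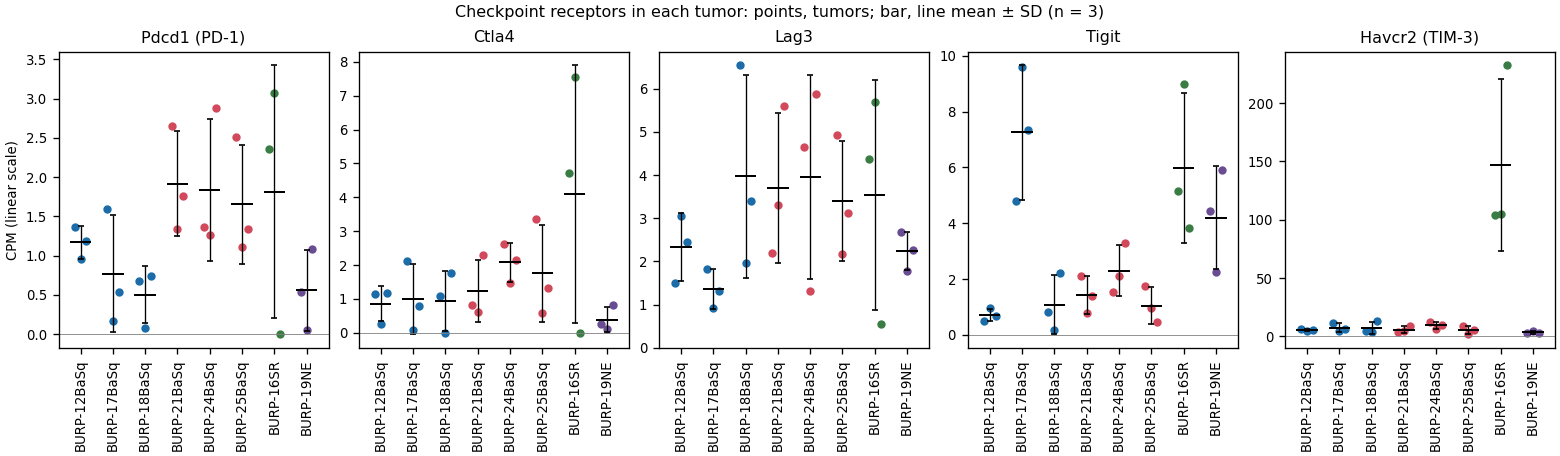
Level of the 5 checkpoint receptors in CPM on a linear axis, by line, with 1 point a tumor and the mean and SD of the 3 tumors of a line in black. Havcr2 exceeds 100 CPM in the 3 BURP-16SR tumors and stays at or below 13.2 CPM elsewhere, and Pdcd1 and Ctla4 are at 0 in BURP-16SR P5.

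The receptors were next set against T cell content, measured as the summed CPM of 16 T cell genes such as Cd3e, Cd4 and Cd8a. This sum ran from 4.26 in BURP-17BaSq C165-M30 to 98.0 in BURP-16SR C74-MNT. Within the lines, the tumor with the lowest T cell sum was also the lowest in Pdcd1 in 7 of 8 lines, in Ctla4 in 7, in Lag3 in 6, and in Tigit and Havcr2 in 4 each. Tumors with the fewest T cell genes therefore held little Pdcd1 and Ctla4 but not always little Tigit or Havcr2. Divided by the T cell sum, Pdcd1 had line means from 0.0199 in BURP-18BaSq to 0.0588 in BURP-21BaSq.

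Relative to that sum, Tigit and Havcr2 covered a much wider range. Tigit over the T cell sum had a mean of 0.318 (SD 0.0260, n = 3) for BURP-19NE, while that of BURP-16SR was 0.110 (SD 0.0567, n = 3). It was 0.926 ± 1.16 (SD, n = 3) in BURP-17BaSq, with 2.25 in C165-M30, and at most 0.0678 as a mean in the other 5 lines. Havcr2 over the T cell sum was 1.07 or more in each BURP-16SR tumor and 10.5 in P5. Among the other lines it reached 1.08 in BURP-17BaSq C165-M30, where the T cell sum is the lowest of the 24, and no other mean exceeded 0.587. Trbc1, a constant region of the T cell receptor, made up most of the T cell sum of P5 with 19.1 CPM, so the sum overstates T cell genes there. It was at 14.5 CPM or more in all 3 BURP-16SR tumors and at most 1.90 CPM in Ba/Sq and 1.40 CPM in BURP-19NE tumors. The order of BURP-16SR and BURP-19NE in Tigit over the sum depends on this gene. Divided by Ptprc, Tigit averaged 0.168 ± 0.189 (SD, n = 3) in BURP-16SR and 0.145 ± 0.00653 (SD, n = 3) in BURP-19NE.

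**Figure D3:**
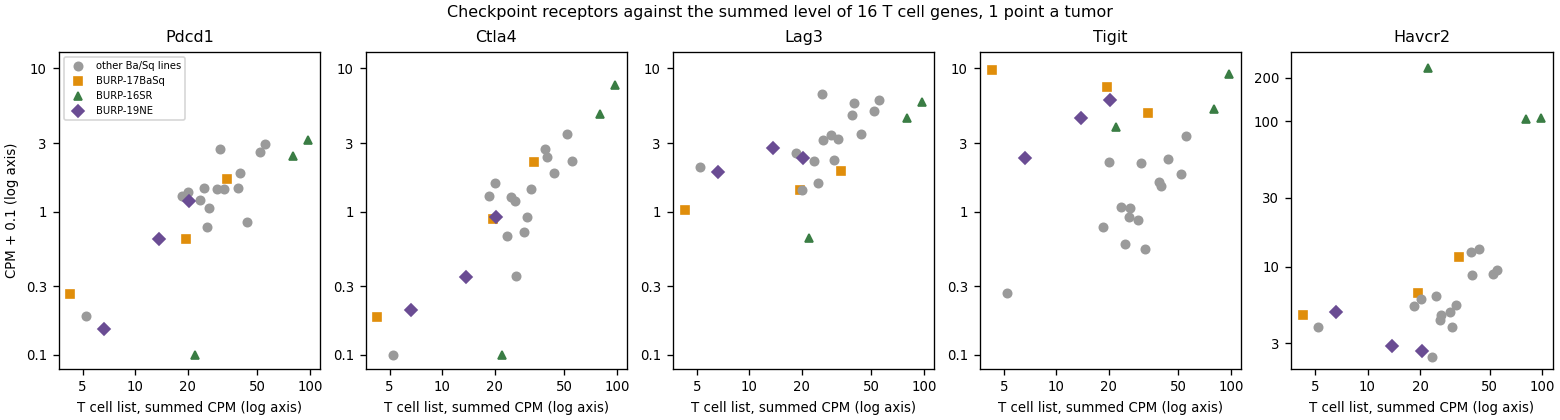
Each receptor (CPM + 0.1, log axis) against the summed CPM of 16 T cell genes (log axis), 1 point a tumor. Pdcd1 and Ctla4 are low in the tumors with the lowest T cell sums, while Tigit is at 9.60 CPM in the BURP-17BaSq tumor with a T cell sum of 4.26 and Havcr2 at 232 CPM in the BURP-16SR tumor with a sum of 22.1.

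Summed per kilobase over the genes, ligands outweighed receptors in all tumors outside BURP-16SR and receptors outweighed ligands in all 3 tumors of BURP-16SR. In the other 21 tumors the 5 ligands added up to 15.4 to 74.1 CPM per kilobase and the 5 receptors to 2.54 to 12.7, a ratio of 2.94 to 8.97. In BURP-16SR the ratio was 0.796, 0.828 and 0.338 in C73-M10, C74-MNT and P5. The receptor sums there were 49.2, 56.0 and 89.8 CPM per kilobase, most of it Havcr2. Without division by length the ratio in the same tumors was 1.25, 1.26 and 0.602, so that the direction in C73-M10 and C74-MNT depends on the scale, and it ran from 4.77 to 15.6 in the others. With Havcr2 also left out it was 9.07, 6.50 and 32.5 in BURP-16SR and 8.43 to 42.0 in the others, so the reversal rests on that gene.

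Cd274 and Lgals9 were also set against a list of 29 interferon gamma response genes, among them Irf1 and Cxcl9, whose summed CPM ran from 483 in BURP-16SR P5 to 6927 in BURP-21BaSq P5. The tumor with the lowest interferon sum of its line was also the lowest in Cd274 in 7 of 8 lines and in Lgals9 in 7. The highest was shared in 6 lines for Cd274 and in all 8 for Lgals9. For Pvr and Nectin2 the lowest tumor was shared in 2 and 3 lines only. Cd274 shared its lowest tumor with the sum of 5 leukocyte genes in 7 lines as well and its highest in 3, and Lgals9 in 7 and 4. Over the 24 tumors, of which 3 share each line, Spearman's rho of Cd274 was 0.757 with the leukocyte sum, 0.681 with the T cell sum and 0.491 with the interferon sum, and that of Lgals9 was 0.550, 0.446 and 0.580. Across lines the order differed: Cd274 in the BURP-16SR tumors C73-M10 and C74-MNT, at 32.9 and 36.2 CPM, was close to that of BURP-24BaSq although their interferon sums were 1874 and 3043 against 4906 to 6638.

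**Figure D4:**
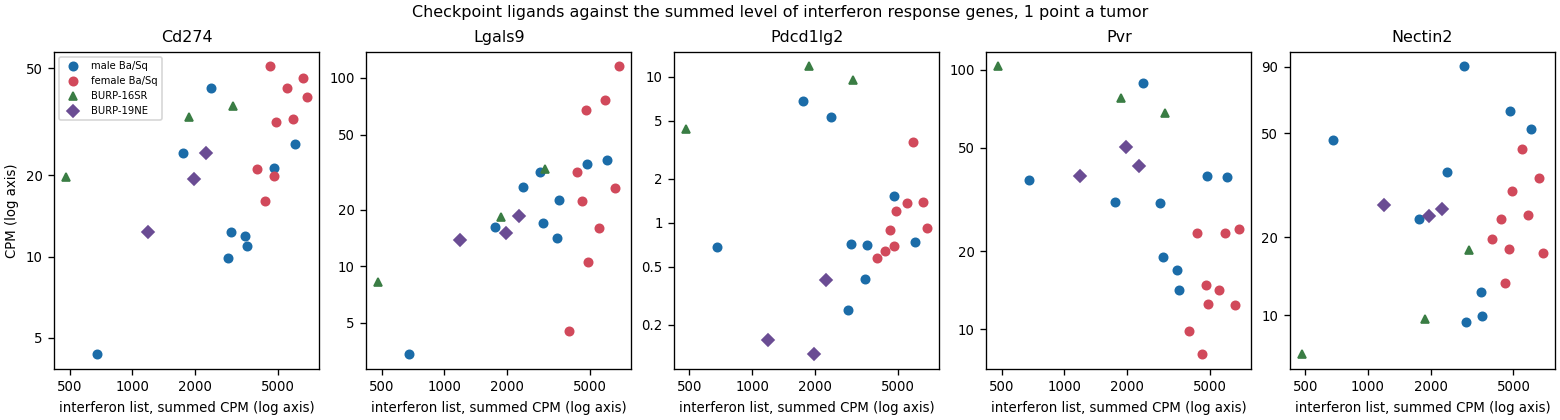
Each ligand (CPM, log axis) against the summed CPM of 29 interferon response genes (log axis), 1 point a tumor. Lgals9 and Cd274 are lowest or near lowest where the interferon sum is lowest, in BURP-18BaSq C149-M3 and BURP-16SR P5, except that Cd274 is at 19.7 CPM in the latter, and Pvr is at its highest, 103 CPM, in that tumor.

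Genes whose pattern over the 24 tumors was most like that of a member were ranked by Spearman's rho over 21384 genes, as a description, since the 3 tumors of a line share a donor. For Cd274 these were Batf2 (rho = 0.857), Tgtp2 (0.807) and Iigp1 (0.805), and for Lgals9 they were Rsad2 (0.938), Znfx1 (0.913) and Mx2 (0.882). Batf2, Tgtp2, Iigp1, Rsad2 and Mx2 are known as interferon-induced genes. Pvr ran with Dmwd (0.957), Chpf (0.934) and Trim3 (0.927), and Nectin2 with Ndufc2 (0.877), Cyfip1 (0.875) and Phldb3 (0.852). Of these, Dmwd, Trim3, Ndufc2, Cyfip1 and Phldb3 lie on chromosome 7, as Pvr and Nectin2 do. The share of all ranked genes on chromosome 7 is not given here, so no excess can be read from these positions. Havcr2 ran with Acap1 (0.868), Rgs14 (0.863) and Il18rap (0.848).

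Differences between groups were tested with edgeR's quasi-likelihood test over all genes, and a gene was called at a Benjamini-Hochberg adjusted p under 0.05 with a fold change above 2. BURP-19NE, compared with the Ba/Sq tumors, was lower in Pdcd1lg2 and in no other member. Its mean was 0.230 ± 0.154 CPM (SD, n = 3) against 1.58 ± 1.80 CPM (SD, n = 18), a log2 fold change of -2.73 (SE 0.98, adjusted p = 0.0361), with overlapping groups. This is 1 called of 10 members, where 24.3% of all genes were called and 15.0% were lower. Leaving out C80-M1, C80-M3 or C80-M30 of BURP-19NE took the adjusted p of Pdcd1lg2 to 0.139, 0.131 or 0.0525. With the counts of each line summed, so that the line is the unit, it was 0.260, and with the line as a random effect 0.388. The median log2 fold change was -0.73 over the members and -0.14 over all genes.

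Among the interferon response genes, 13 of 29 were lower in BURP-19NE and none was higher, where 15.0% of all genes were lower. Of the other ligands and counter-receptors, 9 of 22 tested were lower, among them Cd276 (B7-H3), Icosl, Nectin1, Nectin4 and Ceacam1, and 1 was higher. The one that rose was Ido1, the enzyme that depletes tryptophan, with 54.4 CPM (SD 13.2, n = 3) against 8.85 CPM (SD 8.79, n = 18). Epithelial genes moved with these, since 8 of 9 were lower in BURP-19NE, and their part in the ligand differences was not tested.

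BURP-16SR was higher than the Ba/Sq tumors in Havcr2, Pdcd1lg2 and Pvr. Havcr2 averaged 147 ± 73.7 CPM (SD, n = 3) against 6.76 ± 3.22 CPM (SD, n = 18), a log2 fold change of 4.49 (SE 0.32, adjusted p = 7.78e-10), and its groups did not overlap, as in 11.4% of all genes. For Pdcd1lg2 the log2 fold change was 2.52 (SE 0.63, adjusted p = 0.00579) and for Pvr 1.77 (SE 0.44, adjusted p = 0.00535), both with overlap, from tumors of BURP-18BaSq. Called were 3 of 10 members, all higher, beside 19.2% of all genes called and 10.5% higher. Without C73-M10 the adjusted p of Pdcd1lg2 was 0.0569, and without P5 that of Pvr was 0.0577. With counts summed per line neither passed (adjusted p = 0.222 and 0.170), while Havcr2 was called in every setting tried. With all 24 tumors in 1 fit Nectin2 (log2 fold change -1.20, adjusted p = 0.00109) and Tigit (1.83, adjusted p = 0.00120) were called too, Nectin2 also with DESeq2 (adjusted p = 0.0391).

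Markers of other cell types moved with this comparison, and their part in the differences of the members was not tested. In BURP-16SR, 7 of 9 epithelial genes were lower, beside 8.61% of all genes. Higher were 6 of 6 B cell, 4 of 8 fibroblast, 3 of 6 endothelial and 3 of 10 dendritic cell genes, beside 10.5% of all genes. Near that share were the macrophage list, with 2 of 15 higher (Cd14 and Mertk), and the T cell list, with 2 of 16 (Cd2 and Trbc1). Of 4 regulatory T cell genes, Foxp3 and Ikzf4 were higher and Ikzf2 was lower. Ikzf2 averaged 20.7 ± 14.1 CPM (SD, n = 3) against 116 ± 57.3 CPM (SD, n = 18). Foxp3, the transcription factor of regulatory T cells, was at 7.58, 10.4 and 2.99 CPM in C73-M10, C74-MNT and P5 against 0.835 to 3.92 CPM in the Ba/Sq tumors. The same 3 tumors were not uniform in immune content. Leaving out P5, which had no Cd3e, moved Ctla4 past the threshold, with a log2 fold change of 2.20 over the Ba/Sq tumors and an adjusted p of 0.0467 (edgeR), where the full fit gave 1.71 and 0.126. The leukocyte marker sum of 5 genes was 415, 262 and 79.0 CPM in C73-M10, C74-MNT and P5, and the B cell sum of 6 genes was 347, 11.8 and 2.16 CPM. Fibroblast genes were also uneven, with sums of 7673, 20518 and 609 CPM. Of the other receptors on lymphocytes and myeloid cells, 4 of 17 tested were higher in BURP-16SR and none lower. They were Tnfrsf9 (4-1BB), Tox, Btla and Siglecg, and Tnfrsf9, a costimulatory receptor, averaged 36.0 ± 8.03 CPM (SD, n = 3) against 5.48 ± 2.94 CPM (SD, n = 18). Btla and Siglecg were uneven, from 0.487 to 21.9 CPM and from 0.348 to 39.3 CPM within BURP-16SR, with their lowest tumor below the Ba/Sq means of 0.750 and 0.533 CPM.

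Tox, a transcription factor linked to T cell exhaustion, was at 10.1 to 11.2 CPM in the 3 BURP-16SR tumors, P5 among them, and at most 3.08 CPM in the Ba/Sq tumors. On the ligand side, Tnfsf4, Tnfsf9, Cd200 and Nectin3 were higher and Cd276, Cd24a, Ceacam1, Nectin1 and Nectin4 lower. Nectin3, which binds Pvr and Nectin2, averaged 27.3 ± 3.68 CPM (SD, n = 3) against 4.32 ± 4.71 CPM (SD, n = 18). Ceacam1, described as a ligand of TIM-3, averaged 16.3 ± 5.71 CPM (SD, n = 3) against 368 ± 473 CPM (SD, n = 18). Jak2, which transmits the interferon gamma signal and lies near Cd274 on chromosome 19, was at 106, 112 and 222 CPM in BURP-16SR and at 32.1 to 77.4 CPM in the Ba/Sq tumors, and it was the only one of 9 tested genes beside Cd274 that was higher. Plgrkt, another of these, was at 13.4 to 16.5 CPM in BURP-16SR and 8.44 to 24.9 CPM in the Ba/Sq tumors. Interferon response genes were lower for Stat2, Irf9 and Nlrc5, 3 of 29 beside 8.61% of all genes, and not called for the other 26.

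BURP-16SR against BURP-19NE gave the same 3 members, Pdcd1lg2, Pvr and Havcr2, all higher in BURP-16SR. The log2 fold changes were 5.28 for Pdcd1lg2 (SE 0.64, adjusted p = 0.00225), 1.005 for Pvr (SE 0.18, adjusted p = 0.00749) and 5.53 for Havcr2 (SE 0.45, adjusted p = 8.63e-04). Over all genes 23.6% were called and 14.8% were higher. Of the members, 4 of 10 had groups that did not overlap, Nectin2 being the other one and lower in BURP-16SR, beside 51.7% of all genes. Pvr lies at the fold threshold, and other size factors took it to 0.98 and leaving out C80-M3, C80-M30 or P5 to 0.91, 0.97 or 0.81 on the log2 scale, with adjusted p-values still under 0.05 in these 4 fits. Without P5, Ctla4 (log2 fold change 4.01, adjusted p = 0.00715) and Lag3 (1.24, adjusted p = 0.0199) were also called as higher in BURP-16SR. Without C74-MNT, Nectin2 was called as lower (log2 fold change -1.52, adjusted p = 0.00792). Nectin2 was also called without a filter, with DESeq2 and with all 24 tumors in 1 fit (adjusted p = 0.0485, 0.0150 and 0.00873), and Ctla4 with DESeq2 (adjusted p = 0.0405). In these 3 settings Pvr was not called, with log2 fold changes of 0.94, 0.98 and 0.92, the last at an adjusted p of 0.0532. These tumors are the BURP-16SR and BURP-19NE tumors of the comparisons with Ba/Sq, so the results share samples.

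BURP-24BaSq was compared with BURP-16SR because mice bearing these lines were given cisplatin in the study. The former is a female and the latter a male line, so line, subtype and sex cannot be told apart here. Nectin2 was higher in BURP-24BaSq and Pdcd1lg2, Pvr, Tigit and Havcr2 were lower. Nectin2 averaged 35.7 ± 6.93 CPM (SD, n = 3) against 11.5 ± 5.61 CPM (SD, n = 3), a log2 fold change of 1.56 (SE 0.37, adjusted p = 0.0163). The log2 fold changes of the others were -2.75 for Pdcd1lg2 (adjusted p = 0.00343), -2.73 for Pvr (adjusted p = 1.33e-04), -1.43 for Tigit (adjusted p = 0.0472) and -4.02 for Havcr2 (adjusted p = 7.62e-04). None of these 5 members overlapped between the groups, as was the case for 53.5% of all genes, and 29.0% of all genes were called, 13.2% as higher and 15.8% as lower. Tigit was not called when C73-M10, C74-MNT, C81-M1, C81-M30 or P2 was left out (adjusted p from 0.0539 to 0.151). Nectin2 was lost without C73-M10 or C81-M1 (adjusted p = 0.0608 and 0.0640), and Ctla4 was gained without P5 (log2 fold change -1.56, adjusted p = 0.0132).

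Cd274 itself did not differ detectably between BURP-24BaSq and BURP-16SR, at 39.9 ± 7.57 and 29.6 ± 8.70 CPM (SD, n = 3 each), with a log2 fold change of 0.37 (SE 0.28, adjusted p = 0.347). Of the cell type markers, 7 of 9 epithelial genes were higher and 2 lower in BURP-24BaSq and 6 of 6 endothelial genes were lower, and their part in the differences of the members was not tested. Interferon response genes were higher in BURP-24BaSq for 4 of 29, including Irf7, Irf9 and B2m. This is near the 13.2% of all genes called higher. Their median log2 fold change was 1.55 where that of all genes was -0.05.

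Male and female Ba/Sq tumors, from 3 lines each, differed in 1 member. Pvr averaged 35.1 ± 22.4 CPM (SD, n = 9) in the male and 15.9 ± 6.25 CPM (SD, n = 9) in the female tumors, a log2 fold change of 1.15 (SE 0.32, adjusted p = 0.0432), with overlapping groups. Of all genes 2.31% were called and 1.09% were higher in the male tumors. The male line BURP-12BaSq, at 14.2 to 18.96 CPM, lay within the female range of 8.01 to 24.2 CPM. With the line as the unit the call was lost, at an adjusted p of 0.773 for summed counts and 0.572 for the line as a random effect, and leaving out C102-M1 and C102-M30 gave 0.0816.

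It was also lost in 11 of 18 fits without 1 tumor. These tumors were C152-M1 and P4 of BURP-17BaSq, all of BURP-18BaSq, P4.2 of BURP-21BaSq, all of BURP-24BaSq, and C102-M3 and C102-M30 of BURP-25BaSq, with adjusted p-values from 0.0552 to 0.0850. The largest shift came from BURP-18BaSq C148-M3, without which the log2 fold change of Pvr was 0.84. Pdcd1 was at 0.814 ± 0.516 CPM (SD, n = 9) in the male and 1.80 ± 0.686 CPM (SD, n = 9) in the female tumors (adjusted p = 0.0950, edgeR), and DESeq2 gave 0.0406 for it. Cd274 was at 18.1 ± 11.5 and 33.2 ± 12.3 CPM (SD, n = 9 each; adjusted p = 0.139). Interferon response genes were lower in the male tumors for 8 of 29, including Cxcl9 and Cxcl10, beside 1.22% of all genes, and higher for none. All 8 calls were lost with the line as the unit, by edgeR on summed counts and by limma-voom.

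**Figure D5:**
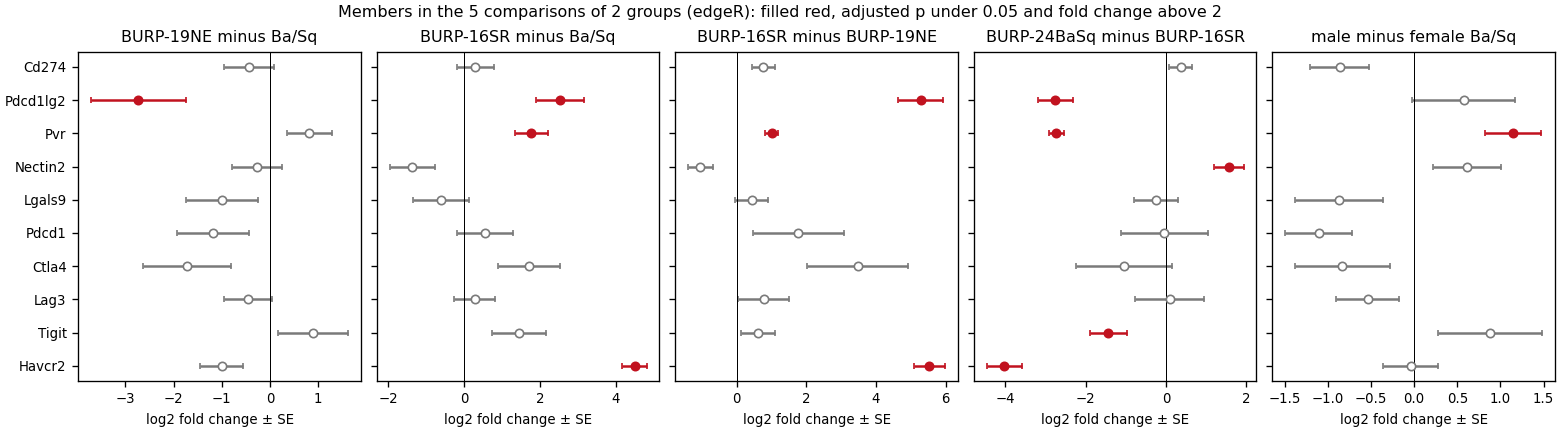
Log2 fold change with its SE from edgeR for the 10 members in the 5 comparisons of 2 groups, with called members in filled red. Pdcd1lg2 and Havcr2 have the largest values, reaching 5.28 and 5.53 between BURP-16SR and BURP-19NE, and Pvr is the only member called between the sexes.

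Among the 8 lines, 5 of 10 members differed in the test for any difference, where 76.7% of all genes did: Nectin2 (adjusted p = 5.71e-06), Pvr (1.30e-05), Havcr2 (9.54e-08), Pdcd1lg2 (9.61e-05) and Tigit (4.00e-04). The 5 that did not reach the threshold were Cd274, Lgals9, Pdcd1, Ctla4 and Lag3, of which Lgals9 passed it without a filter (adjusted p = 0.0438), with at least 10 counts in every tumor (0.0463) and with DESeq2 (0.0141). Within the 6 Ba/Sq lines Nectin2, Pvr, Tigit and Pdcd1lg2 differed, 4 of 10 beside 50.5% of all genes, and Havcr2 did not (adjusted p = 0.683). Pdcd1lg2 (adjusted p = 0.0291) was lost there without any of the 3 BURP-12BaSq tumors, without C148-M3 or P4 of BURP-18BaSq, or without P4.2 of BURP-21BaSq, with adjusted p-values from 0.0522 to 0.149. Lgals9 was gained with DESeq2 (0.0328) and without C102-M3 (0.0268) or C102-M1 (0.0215), Cd274 without C149-M3 of BURP-18BaSq (0.0257) and Pdcd1 without C152-M1 of BURP-17BaSq (0.0378).

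Of the 280 combinations of a member with a pair of lines, 61 were called, while a mean of 17.5% of all genes was called per pair. Pvr was called in 16 of 28 pairs, Pdcd1lg2 in 12, Nectin2 and Tigit in 11 each, Havcr2 in 8, Lgals9 in 2 and Cd274 in 1. Havcr2 separated BURP-16SR from each of the other 7 lines, with log2 fold changes from 3.98 against BURP-24BaSq to 5.45 against BURP-19NE. Nectin2 separated BURP-17BaSq from BURP-12BaSq by 2.68 (adjusted p = 4.57e-05) and from BURP-16SR by 2.56. The only call for Cd274 was BURP-12BaSq below BURP-24BaSq (log2 fold change -1.76, adjusted p = 0.0287). When the lines are ordered by their mean, 1 of 70 steps between neighbouring lines was called, the step in Havcr2 from BURP-16SR to BURP-24BaSq, so the order of the other neighbours was not resolved.

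The wider checkpoint network and the cell markers are given beside the 76.7% of all genes that differed among the 8 lines. Of the other ligands and counter-receptors, 16 of 23 tested passed the threshold, and of the other receptors 4 of 18. The T cell list had 2 of 16 genes past the threshold and the macrophage list 4 of 15, and the interferon response list 18 of 29, while 9 of 9 epithelial genes passed it. Cd80 and Cd86, the ligands of CTLA-4, averaged 4.38 CPM (SD 5.54) and 3.52 CPM (SD 2.27) over the 18 Ba/Sq tumors. Cd226, the activating receptor that competes with TIGIT for Pvr, was at 1.79 CPM or less in all 24 tumors, and Ifng at 1.27 CPM or less. Ifng averaged 0.104 CPM in BURP-19NE, where the floors were 0.126 to 0.157 CPM. In BURP-24BaSq it averaged 0.858 CPM, where they were 0.123 to 0.158 CPM.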

How the data were processed

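RNA from 24 subcutaneous BURP tumors, 3 from each of 8 lines, had been sequenced. The authors deposited expected counts per gene, made with STAR 2.6.0a and RSEM 1.3.1 on GRCm38, and the submitters' processing notes also name CASAVA 1.8.2. Of the values 12.5% were not whole, and all were rounded. The strand setting of RSEM is not given in the sources used here. Totals ran from 9295755 to 25370376 counts, with a median of 17693191.

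Genes were filtered with filterByExpr, normalized by TMM and tested with the quasi-likelihood F-test of edgeR 4.0.16 in R 4.3.3, on the groups compared only. Calls needed a Benjamini-Hochberg adjusted p under 0.05 over all genes tested and a fold change above 2 (no fold for tests over several lines). Alternatives used DESeq2 1.42.0 and limma 3.58.1, other filters and scalings, counts summed per line, and fits without 1 tumor. Scripts were tested on simulated data. Per-kilobase levels used exon lengths of the GRCm38 annotation. The members and lists were chosen with earlier results of these data known. The text names all members, up to 4 called genes of a list by fold change, fixed markers and partners (Cd80, Cd86, Ceacam1, Irf1, Jak2, Plgrkt, Cd3e, Foxp3, Csf1r, Ptprc, Epcam) and, for 5 members, the 3 genes of highest Spearman's rho, and other list genes named were chosen after their values were seen. The labels give no batch. The tumors of a line share a donor, so p-values over tumors measure the spread between grafts. A fixed marker is not reported here.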

Additional observations from a re-analysis of the deposited data

Results flagged for a closer look

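Of 20 groups of 9 tumors (10 members in the male and the female Ba/Sq tumors) 3 held a tumor far from the others by Dixon's criterion at 95%. Its rate of about 1 in 20 groups holds for independent, normal values. The 9 tumors come from 3 lines and the values are CPM on a linear scale, so the count cannot be set against that rate. BURP-18BaSq C148-M3 stood apart in the male tumors for Lag3, at 6.55 CPM with the next tumor at 3.399 CPM, and for Pvr, at 89.0 CPM with the next at 39.1 CPM. The library labelled BURP-25BaSq C102-M1 stood apart in the female tumors for Pdcd1lg2, at 3.58 CPM with the next at 1.40 CPM.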

How the results depend on the processing

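Outside the fits without 1 tumor, 464 values of single members kept their direction and their side of the threshold, 14 fell below it, 18 rose above it and 12 changed sign. The number of members called in BURP-19NE against Ba/Sq was 0 with at least 10 counts in every tumor, 2 with DESeq2, 2 with all 24 tumors in 1 fit, 0 with counts summed per line, 0 with limma-voom and the line as a random effect, and 0 to 2 without 1 tumor. In BURP-16SR against Ba/Sq it was 5 with all 24 tumors in 1 fit and 1 with summed counts. In BURP-24BaSq against BURP-16SR it was 3 to 6 without 1 tumor. Between the sexes it was 0 without a filter, 2 with DESeq2, 0 with summed counts, 0 with limma-voom, 0 without C102-M1 and C102-M30, and 0 to 1 without 1 tumor. Over the 6 Ba/Sq lines it was 2, and over the pairs of lines 40, with at least 10 counts in every tumor, a filter that leaves 5 members untested in the 6 lines.

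Values that changed sign, all log2 fold changes and none past the threshold, were 0.0117 for Nectin2 in BURP-19NE against Ba/Sq and -1.16 for Pdcd1, -0.29 for Ctla4 and -0.26 for Lag3 in BURP-16SR against Ba/Sq, each with limma-voom. In BURP-24BaSq against BURP-16SR, Pdcd1 was 0.0191 with DESeq2's size factors, 0.0171 without a filter, 0.0197 with library sizes that leave out 2 ribosomal-type genes, 0.00608 with DESeq2 and 0.0318 with all 24 tumors. Between the sexes Havcr2 was 0.0742 with summed counts and 0.12 with limma-voom, and Pdcd1lg2 was -0.00634 with limma-voom. Without 1 tumor, Pdcd1 ran from -0.0694 to 1.04 and Lag3 from -0.25 to 0.69 in BURP-16SR against Ba/Sq, and Lgals9 from -0.17 to 0.77 in BURP-16SR against BURP-19NE. In BURP-24BaSq against BURP-16SR, Lgals9 ran from -0.64 to 0.35, Pdcd1 from -0.56 to 0.60 and Lag3 from -0.35 to 0.62, and between the sexes Pdcd1lg2 ran from -0.0284 to 0.96 and Havcr2 from -0.23 to 0.0921. The cause was not tested. Counts over all genes moved by more than 1.5 times between settings. For the sexes they were 414 as reported, 191 with at least 10 counts, 768 with DESeq2, 1474 with all 24 tumors, and 0 with summed counts or limma-voom. For BURP-19NE against Ba/Sq they were 5109, 2001 with at least 10 counts, 1088 summed and 2271 with limma-voom, for BURP-16SR against Ba/Sq 4026, 1595, 841 and 1500, and for the 8 lines 16412 and 9448 with at least 10 counts.

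No paired analysis was possible because replicate numbers were given in accession order and pair no tumors across lines. The levels of Pdcd1, Ctla4 and Pdcd1lg2 were near the 3-count floor in several tumors, and small differences in them were not detectable at this depth.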
